A study of Mus musculus with 52 samples.

Results

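The 300 most accessible autosomal promoters of mouse embryonic stem cells (mESCs) were taken from calibrated ATAC-seq (cATAC-seq) of 4 conditional Kdm2 lines. They were selected on the untreated (UNT) libraries: in each line the 19900 autosomal promoters, of 20633 in all, were ranked by their mean UNT signal, the 4 ranks of a promoter were averaged, and the 300 best mean ranks were kept. The members make up 1.51% of autosomal promoters. Because the UNT values chose them, their UNT levels, and the part of every tamoxifen comparison that rests on those libraries, are a description; the tamoxifen (TAM) libraries, the chromosome position and the DNA sequence were not used by the rule.

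All 4 lines are homozygous for floxed alleles and carry a tamoxifen-inducible CreERT2 at the Rosa26 locus, and each was compared with and without 800 nM 4-hydroxytamoxifen for 96 h. Kdm2a/b-JmjC fl/fl cells (3 UNT, 3 TAM) were derived from mice and lose the exons for the demethylase domain of both proteins, which removes the long forms and leaves the short forms. Kdm2a/b-CXXC fl/fl cells (4 UNT, 4 TAM) lose the DNA-binding CXXC domain of both proteins, and Kdm2a-CXXC fl/fl (3 UNT, 3 TAM) and Kdm2b-CXXC fl/fl cells (3 UNT, 3 TAM) that of a single one. Both lines with a floxed Kdm2a CXXC exon were made by genome editing of cultured cells, the double line from the Kdm2b-CXXC line, so that the lines differ in origin as well as in genotype. Where 4 values are given below, they stand in the order of the lines just named. No line without floxed alleles given tamoxifen was analysed here, and an effect of tamoxifen or CreERT2 itself cannot be told apart from that of the deletion. The libraries of a group were biological replicates by the study's methods.

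A promoter's value is its calibrated read count, the ATAC-seq reads in a 400-base interval around the start site divided by a size factor from Drosophila cells added before the reaction. Each line has a calibration of its own, so that calibrated reads are not on a common scale between lines. The 26 libraries held 1488370 to 3025358 promoter reads each, and a member held 133 to 1598 reads in a library, with a median of 348. At that number counting error alone is 5.36% of the value if reads are independent. Sequencing was paired-end, and where both reads of a fragment were counted the error would be larger. Of 12 embryonic stem cell marker genes 11 had a promoter in the tables, with a median of 173 calibrated reads against 38.3 for 21 markers of other cell types. The sets overlapped, the first running from 53.7 to 253 and the second from 5.24 to 181 calibrated reads. None of the 11 was among the 300, and the best placed, Zfp42, was at position 2145.

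ATAC-seq uses a transposase that inserts sequencing adapters where DNA is not covered by nucleosomes, and promoters of active genes are among the most open sites. Most promoters of broadly used genes in mammals lie in CpG islands, stretches of unmethylated DNA rich in CpG dinucleotides. KDM2A and KDM2B bind unmethylated CpGs through their CXXC domain, KDM2B as part of a variant Polycomb complex. NF-Y, which binds the CCAAT box, and SP1 and related factors, which bind the GC box, act at many such promoters.

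The 150 bases before the annotated start site of 6 of the 7 best ranked members are shown because these are the highest promoters by rank and carry the CCAAT and GC boxes counted further on. Each is read 5′ to 3′ on the gene's strand from GRCm38.p6 (mm10), upstream of the first exon of the transcript named, and capitals mark CCAAT and GGGCGG on either strand. The stretches are chr11:75461389-75461538 (plus strand), chr11:106272973-106273122 (minus), chr11:29692748-29692897 (plus), chr11:109425796-109425945 (plus), chr11:6444444-6444593 (minus) and chr11:35769345-35769494 (plus).
Mir22hg: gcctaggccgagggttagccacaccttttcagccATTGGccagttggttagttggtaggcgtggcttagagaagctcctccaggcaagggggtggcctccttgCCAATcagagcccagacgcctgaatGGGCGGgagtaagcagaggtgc
Smarcd2: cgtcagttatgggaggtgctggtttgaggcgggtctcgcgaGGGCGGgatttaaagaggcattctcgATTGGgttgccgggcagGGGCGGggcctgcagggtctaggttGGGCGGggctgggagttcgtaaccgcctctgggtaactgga
Rtn4: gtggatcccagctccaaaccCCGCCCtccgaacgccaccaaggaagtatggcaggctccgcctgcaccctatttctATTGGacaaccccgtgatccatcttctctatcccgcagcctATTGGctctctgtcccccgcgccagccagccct
Amz2: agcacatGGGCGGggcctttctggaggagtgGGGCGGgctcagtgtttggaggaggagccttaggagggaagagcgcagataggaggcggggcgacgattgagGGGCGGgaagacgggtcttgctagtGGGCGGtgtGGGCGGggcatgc
H2az2: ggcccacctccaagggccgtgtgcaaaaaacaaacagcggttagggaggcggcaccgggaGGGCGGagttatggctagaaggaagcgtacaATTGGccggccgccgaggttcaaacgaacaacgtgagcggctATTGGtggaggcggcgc
Pank3: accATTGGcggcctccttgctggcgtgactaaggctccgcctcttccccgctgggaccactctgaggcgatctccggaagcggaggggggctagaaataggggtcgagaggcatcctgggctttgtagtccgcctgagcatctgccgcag
CCAAT stood 116 and 47 bases upstream of the start in Mir22hg, 83 in Smarcd2, 74 and 33 in Rtn4, 59 and 17 in H2az2 and 147 in Pank3, counted to the box's first base. Amz2 held no CCAAT in these bases and 5 GC boxes, and Pank3 held no GC box in them. All 6 lie on chromosome 11.

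The member with the best mean rank was the interval of transcript NM_172505 at chr1:88277358-88277757, for which the tables used here gave no symbol; the interval also holds the annotated start of Hjurp (NM_198652), the chaperone that deposits the centromeric histone CENP-A. In the UNT libraries of Kdm2a/b-JmjC cells it had 1025, 1016 and 1096 calibrated reads and in those of Kdm2a/b-CXXC cells 477, 533, 483 and 469. In Kdm2a-CXXC cells the libraries had 891, 873 and 958, and in Kdm2b-CXXC cells 1029, 605 and 688. It ranked first of all autosomal promoters in every line but Kdm2a-CXXC, where it ranked 6. In Kdm2b-CXXC cells replicate 1 was the highest.

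Mir22hg, the host transcript of the microRNA miR-22, followed, with a mean of 501 ± 58.0 (SD, n = 3) calibrated reads in Kdm2a/b-JmjC cells. Its means in the other lines were 381 ± 26.9 (SD, n = 4), 674 ± 57.9 (SD, n = 3) and 608 ± 149.8 (SD, n = 3). Smarcd2, a subunit of the BAF nucleosome remodelling complex, reached 481 ± 28.3 (SD, n = 3), 385 ± 33.0 (SD, n = 4), 661 ± 43.4 (SD, n = 3) and 639.7 ± 173 (SD, n = 3) in the 4 lines. The UNT replicates of Mir22hg and Smarcd2 overlapped in every line, so that their order is not resolved.

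The remaining promoters of the best 20 belonged to genes of varied function. Rtn4 shapes the endoplasmic reticulum, Amz2 is a metallopeptidase, H2az2 a variant of histone H2A and Pank3 a kinase of coenzyme A synthesis. Actr2 is the ARP2 subunit that nucleates branched actin, Eif4a1 the helicase of translation initiation and Nf2 the tumour suppressor merlin. Dgke is a diacylglycerol kinase, and Dgkeos the RNA from its opposite strand. Ubald2 was followed by Cdk5rap3, an adaptor of UFM1 conjugation, Pwwp2a, a reader of H2A.Z nucleosomes, and Jup, the junction protein plakoglobin. Mapk9, the kinase JNK2, Dcaf7, a WD-repeat adaptor, Myh10, a non-muscle myosin, and Hspa4, a chaperone of the Hsp70 superfamily, completed the 20. Mean UNT levels at positions 2 to 20 ran from 364 to 501, 299 to 388, 513 to 705 and 456 to 639.7 calibrated reads. All of these means lay below that of NM_172505 in every line, and in the plot of the 20 best ranked members the replicates of neighbouring genes overlap.

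**Figure D1:**
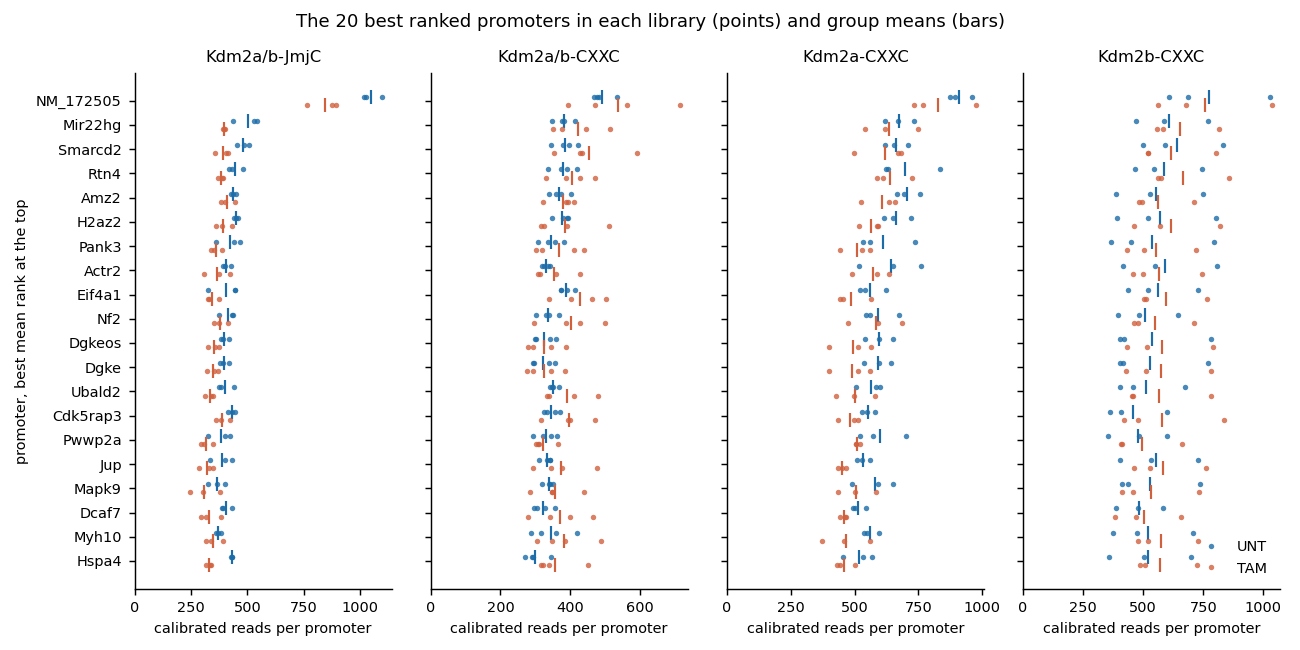
Calibrated reads of the 20 best ranked promoters in every untreated and tamoxifen library of the 4 lines; each point is 1 library. NM_172505 stands apart in the Kdm2a/b-JmjC line, at 1046 calibrated reads on average in the UNT libraries, while points of neighbouring genes overlap.

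Over all 300 members the UNT mean had a lowest, median and highest value of 245, 317 and 1046 calibrated reads in Kdm2a/b-JmjC cells. In the Kdm2a/b-CXXC line these were 189.9, 252 and 490.3. In Kdm2a-CXXC cells they were 342, 435 and 1274, the highest being Klf5, and in Kdm2b-CXXC cells 297, 391 and 774. The median member was 4.29, 3.92, 5.11 and 4.11 times the median autosomal promoter. Against the next 300 promoters by rank it was higher by only 1.198, 1.18, 1.23 and 1.18 times, so that no gap separates the 300 from the rest.

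The last members show how close the border is. Map3k14 (NIK, a kinase of the noncanonical NF-κB pathway) at position 299 had a mean rank of 417.75 and Ddx54, an RNA helicase, at position 300 one of 418.5. Stk25 and Cnot8, just outside, both had 419.75. Ddx54 reached 288, 219, 375 and 344 calibrated reads on average in the UNT libraries.

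Membership varied between lines. Among the 300 highest promoters of a line's own UNT libraries were 197, 217, 197 and 255 members. Of the members 292 were in the highest 300 of at least 1 line and 132 in those of all 4, whereas 569 autosomal promoters were in the highest 300 of at least 1 line. Within each line 2 libraries of a group never agreed to within the counting error of independent reads (smallest chi-square per degree of freedom 1.90), so that no library was counted as a copy of another.

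**Figure D2:**
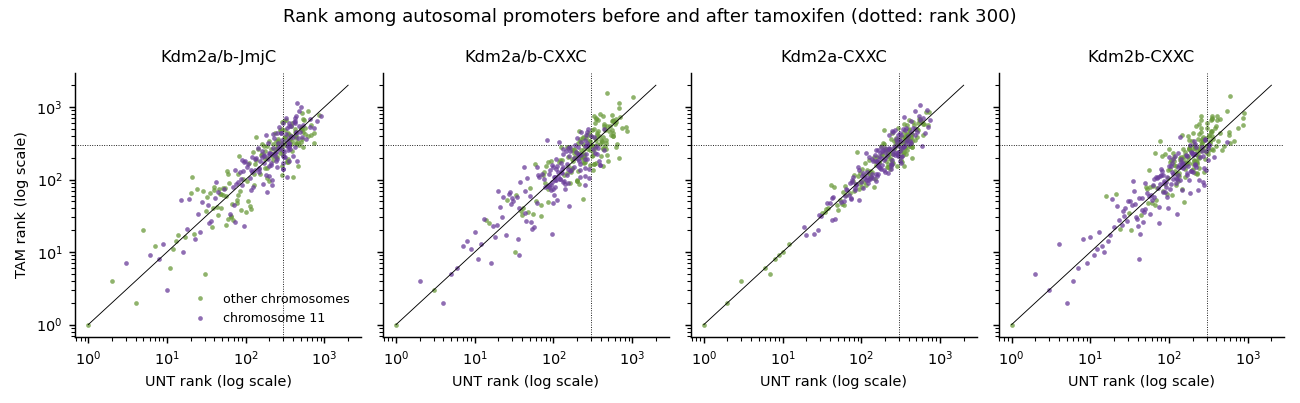
Rank of each member among the 19900 autosomal promoters in the untreated libraries (horizontal, log scale) and the tamoxifen libraries (vertical, log scale) of each line; each point is 1 promoter. In tamoxifen-treated cells 196, 221, 210 and 239 members were among the highest 300 in the 4 lines, in the order Kdm2a/b-JmjC, both CXXC domains, Kdm2a-CXXC and Kdm2b-CXXC.

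Chromosome 11 held 143 of the 300 members (47.7%), against 8.16% of all autosomal promoters, and 19 of the best 20 and 69 of the best 100. Of the next 300 promoters it held 81. It also held 96, 147, 106 and 152 of the highest 300 of each line taken alone. Of its own promoters 8.81% were members.

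The promoters of chromosome 11 were high as a whole. Among CpG-rich promoters (at least 50% G or C and 0.6 or more of the CpGs that the base composition would give), those of chromosome 11 had a median 0.40, 0.49, 0.40 and 0.46 above the autosomal median on the log2 scale in UNT libraries, and 0.38, 0.50, 0.43 and 0.48 in the TAM libraries, which did not enter the ranking. In single libraries this shift ran from 0.346 to 0.543, and for promoters that are not CpG-rich from 0.321 to 0.545. It extended along the chromosome: all 12 of the 10-Mb windows with at least 20 CpG-rich promoters had a median above 0 in every line, from 0.234 to 0.666 in Kdm2a/b-JmjC and 0.231 to 0.787 in Kdm2a/b-CXXC cells.

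Other chromosomes stood out in single lines. In Kdm2a/b-JmjC cells the shift was 0.52 for chromosome 1 and 0.42 for chromosome 8, which held 84 and 58 of the highest 300 promoters there, and all 13 windows of chromosome 1 and all 12 of chromosome 8 were above 0. In Kdm2a-CXXC cells chromosome 1 was at 0.28 with 9 of 13 windows above 0, and chromosome 3 at 0.21. In Kdm2b-CXXC cells chromosome 8 was at 0.19, and chromosome 1 was at −0.01 in Kdm2a/b-CXXC and 0.01 in Kdm2b-CXXC cells. Over the remaining autosomes the shift lay between −0.226 and 0.119. Among these, chromosomes 7 and 6 held 50 and 29 of the highest 300 in Kdm2a/b-CXXC cells and 23 and 14 in Kdm2b-CXXC cells. They held 5 and 5 in Kdm2a/b-JmjC and 6 and 2 in Kdm2a-CXXC cells. The input genomic DNA libraries were not analysed here, and the number of DNA copies of a chromosome and the accessibility of each copy cannot be told apart from these values.

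**Figure D3:**
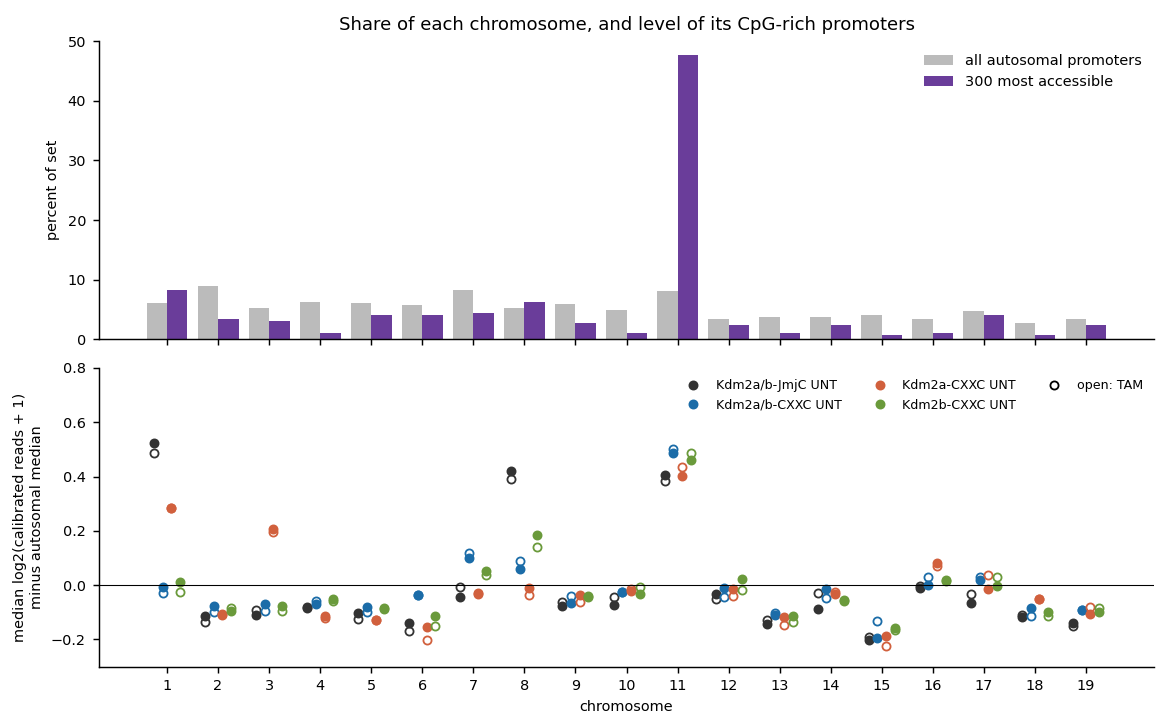
Upper panel: percent of all autosomal promoters and of the 300 members on each autosome. Lower panel: median log2(calibrated reads + 1) of the CpG-rich promoters of each chromosome minus the autosomal median, per line and treatment (filled UNT, open TAM); chromosome 11 was above 0.3 in every line, whereas chromosome 1 was high in the Kdm2a/b-JmjC line at 0.52 and lower elsewhere.

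A stretch of chromosome 14 behaved differently in 1 line. Klf5, a transcription factor that supports self-renewal of mESCs, had 1166, 1217 and 1439 calibrated reads in the UNT libraries of Kdm2a-CXXC cells and ranked first there, whereas the libraries of Kdm2a/b-JmjC cells had 329.8, 349 and 379, of the Kdm2a/b-CXXC line 179.8, 215, 211 and 213 and of the Kdm2b-CXXC line 489, 246 and 356, at ranks 103, 685 and 252. Bora, an activator of the mitotic kinases Aurora A and PLK1, had 967, 1095 and 1222 and rank 3 in Kdm2a-CXXC and 169, 202, 193 and 196 and rank 1013 in Kdm2a/b-CXXC cells. The Kdm2a-CXXC libraries did not overlap those of any other line at either promoter, although the calibration differs between lines. Between 80 and 110 Mb, bounds chosen after seeing the data, the 23 CpG-rich promoters of chromosome 14 had a median 1.86 above the autosomal one in Kdm2a-CXXC cells, a 3.64-fold difference, against 0.53, 0.17 and 0.27 in the other 3 lines. In TAM libraries of the Kdm2a-CXXC line the shift was 1.81. Of these promoters 18 were in the highest 300 of that line, and the members among them were Klf5, Bora and Dis3, the last, a nuclease of the RNA exosome, named after its values were seen.

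The members whose 4 ranks differed most were Bora and 4 others. On chromosome 1, 2900009J06Rik, a noncoding transcript, was at ranks 65, 679, 12 and 882. Hspe1, the mitochondrial chaperonin HSP10, was at ranks 55, 558, 45 and 910, and Ccdc115, an assembly factor of the vacuolar proton pump, at 51, 564, 7 and 867. These 3 were high in the same 2 lines in which chromosome 1 was shifted. Fam71e1 on chromosome 7 had the opposite order, with ranks 848, 47, 513 and 244.

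Where each promoter was ranked after subtracting the median of its chromosome's CpG-rich promoters, an alternative added after seeing the data, 172 of the 300 best were members and 33 lay on chromosome 11. The share of promoters with a CCAAT box and the counts by gene list are therefore given for both rankings below.

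Nearly all members were CpG-rich, 97.0% against 55.1% of autosomal promoters. The exceptions were 9 promoters, among them those of Atp5g1, which encodes the c subunit of the ATP synthase, and Tomm40l, a paralogue of the mitochondrial import channel TOMM40. Within CpG-rich promoters the members were not richer still: their median interval held 35 CpGs, against 36 in the next 300 and 37 over all CpG-rich autosomal promoters, and the median GC content was 64.8% against 66.8% in the last.

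The CCAAT box was the searched motif in which the members differed most from other CpG-rich promoters. CCAAT, on either strand of the 400 bases, was present in 214 members (71.3%), against 62.7% of the next 300, 58.9% of the 1400 after those, 37.6% of all CpG-rich and 39.8% of all autosomal promoters. The share did not fall evenly with rank, since 48.75% of the 2000 lowest promoters, of which 1 was CpG-rich, held CCAAT. The share was 66.4% on chromosome 11 and 75.8% on the others, and 75.7% in the chromosome-centred ranking, so that it was not lower off chromosome 11. At least 2 matches were found in 46.9% of the 262 members whose interval is centred within 1 base of an annotated start, against 14.3% of 9056 such CpG-rich promoters. Their position was alike: the median match lay 70 bases upstream of the start in members and 67 bases upstream in CpG-rich promoters, and 50.1% of members' matches fell between 130 and 30 bases upstream. Among the 20 best ranked promoters 17 held CCAAT and 20 held GGGCGG.

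The other motifs differed less. The GC box GGGCGG was present in 267 members (89.0%), against 82.8% of CpG-rich and 56.6% of autosomal promoters. CCGGAAG, a site of ETS factors, was in 23.7% against 21.8% of CpG-rich promoters, and AAGATGGCG, a site of YY1, in 7.67% against 4.82%. TATAAA was in 6.33%, against 4.51% of CpG-rich and 10.4% of autosomal promoters, and TGAGTCA, the AP-1 site, in 2.67% against 2.62% and 4.96%. GCGCATGCG (NRF1) was in 2.67% against 3.94%, TGACGTCA (CREB and ATF factors) in 2.67% against 3.71%, and CACGTG (E-box factors) in 9.67% against 11.9% of CpG-rich promoters. Matches were counted on both strands and separately for each motif, so that a stretch could count for more than 1 motif. A match is a run of letters and no measure of a factor's binding.

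**Figure D4:**
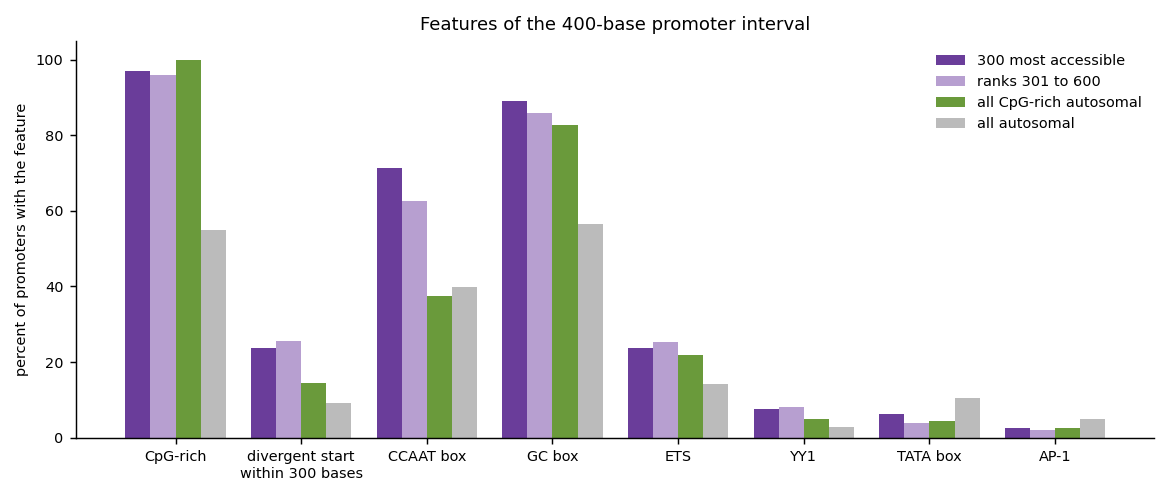
Percent of promoters whose 400-base interval has each feature, in the 300 members, the next 300 by rank, all CpG-rich autosomal and all autosomal promoters. CCAAT was present in 71.3% of members and 37.6% of CpG-rich promoters, while the GC box differed by less, at 89.0% and 82.8%.

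A second start site on the opposite strand, directed away from the first and no more than 300 bases from it, was annotated for 71 members (23.7%), against 25.7% of the next 300, 14.5% of CpG-rich and 9.15% of all autosomal promoters. The gap ran from 1 to 297 bases, with a median of 160. The intervals of 21 pairs of neighbouring members, each pair on opposite strands, overlapped, so that 42 members share reads with another. Dgke and Dgkeos start 3 bases apart and share 398 of 400 bases, and their values are in effect a single measurement. Another pair was Ndufaf8, an assembly factor of respiratory complex I, and Tepsin, which binds the adaptor complex AP-4 and was named after its values were seen.

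The members carried 299 distinct symbols, and 281 (93.7%) were promoters of protein-coding transcripts and 19 (6.33%) of noncoding ones. In 20 gene lists 44 members were found, in 14 of the lists. The lists were drawn from gene symbols and are not complete. Pwwp2a, for example, is outside that of chromatin regulators, and Bora outside that of cell cycle and mitosis. A low count is therefore no measure of how rare a function is among the members. Vesicle traffic had 9 of 184 promoters among the members (4.89%), the best ranked being Arf2, a small GTPase of Golgi transport, Snx11, a sorting nexin, and Rab8a, which directs vesicles to the plasma membrane. Chaperones had 5 of 82 (6.10%), Hspa4, Dnajb1 and Hspa2 first, and translation factors 3 of 66, Eif4a1, Eif5 and the release factor Etf1. Of all autosomal promoters 1.51% were members, and each list rests on few promoters. In the chromosome-centred 300 these 3 lists had 10, 6 and 6 promoters, and 3, 1 and 1 of their members lay on chromosome 11.

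Ubiquitin conjugation had 5 of 156, led by the deubiquitinases Usp36 and Usp22 and the F-box protein Fbxw11. Cell cycle and mitosis had 5 of 153, among them Cdc27, a subunit of the anaphase-promoting complex, and Ccng1, a target of p53, while Cdk5rap3 and Cdc42se2 entered that list by their symbols and act mainly in UFM1 conjugation and in CDC42 signalling. Oxidative phosphorylation had 3 of 92, Atp5g1, Uqcrq of complex III and Ndufaf8. Splicing and hnRNP proteins had 3 of 93, the splicing factor Srsf2, Hnrnpab and the helicase Ddx5, and Zfp zinc finger proteins 3 of 306, Zfp143, Zfp574 and Zfp142. All 5 members of the cell cycle list, all 3 of oxidative phosphorylation, all 3 of splicing and 4 of the 5 of ubiquitin conjugation lay on chromosome 11, and the chromosome-centred 300 held 1, 1, 2 and 4 promoters of these lists. Of the Zfp list it held 3. The counts by chromosome cover the lists as drawn, and Bora, outside the cell cycle list, lies on chromosome 14. Taf15 and Med19 stood for 77 promoters of RNA polymerase II initiation and Mediator, and Smarcd2 and Kmt5c, a histone H4 lysine methyltransferase, for 110 chromatin regulators, and the chromosome-centred 300 held 1 and 4 of these.

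Single members came from the lists of cytosolic ribosomal proteins (Rps27a, of 79), the proteasome (Psmd3, of 48), DNA replication and repair (Rpa1, of 83) and pluripotency (Klf5, of 24). The chromosome-centred 300 held 1, 1, 3 and 1 promoters of these lists. None came from 75 mitochondrial ribosomal proteins, 34 aminoacyl-tRNA synthetases, 9 replication-dependent histones, 26 immediate early genes or 145 developmental regulators. Nor did any come from 541 promoters of chemosensory receptors, genes of sensory neurons, of which the best was at position 12480.

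In tamoxifen-treated cells the members moved with all promoters. In Kdm2a/b-JmjC cells their median log2 fold change (TAM over UNT, on log2(calibrated reads + 1)) was −0.22, against −0.21 for the 17174 promoters tested, and 5 of 300 members (1.67%) were higher, against 16.6% of all promoters tested. In the Kdm2a/b-CXXC line the medians were 0.12 and 0.09, and 268 members (89.3%) were higher, against 68.0%. Kdm2a-CXXC cells gave −0.18 and −0.18, with 3 members (1.0%) higher, against 18.8%, and Kdm2b-CXXC cells 0.08 and 0.10, with 252 (84.0%) higher, against 71.1%. All 300 passed the filter on low values in each line. These directions came largely with the spike-in scale. With TMM scaling, which centres the libraries on each other, the members' medians were −0.019, 0.036, −0.010 and −0.020. Those of all promoters tested were −0.0067, 0.0007, −0.011 and −0.0030, and 126, 189, 134 and 122 members were higher. In Kdm2a/b-CXXC cells most members were thus still higher.

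No member changed by the test used here, limma with Benjamini-Hochberg adjusted p under 0.05 and a change over 1.4-fold, in any line; the same was found with edgeR's quasi-likelihood test and with DESeq2. Over all promoters tested this threshold called 0.0757% in Kdm2a/b-JmjC cells and 0.0% in each of the 3 CXXC lines with limma. In Kdm2a/b-JmjC cells edgeR called 114 of all promoters and DESeq2 12, against 13 with limma. Neither called any in the CXXC lines. With JmjC deletion 2 members were lower by adjusted p alone (all promoters 0.0873%), and at an unadjusted p under 0.05 limma found 144 lower (48.0%, all promoters 20.3%), edgeR 141 and DESeq2 124. At that threshold 8 members (2.67%) were higher in Kdm2a/b-CXXC cells, against 3.58% of all promoters, 15 (5.0%) lower in Kdm2a-CXXC, against 8.0%, and none higher in Kdm2b-CXXC, against 0.519%; edgeR gave 12, 15 and 0 and DESeq2 20, 23 and 0. Over the whole of the 20 gene lists 3 promoters passed both thresholds, all of them lower, in Kdm2a/b-JmjC cells, and none was a member. At an unadjusted p the share of all promoters was counted for limma only. The UNT libraries both chose the members and entered these comparisons, so that nothing is read from these counts and shares.

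The members' changes were closely bunched. The interquartile range of their log2 fold changes was 0.140, 0.141, 0.116 and 0.109, against 0.269, 0.252, 0.248 and 0.247 over all promoters tested, and their most extreme changes were −0.49 and 0.07, −0.22 and 0.43, −0.43 and 0.05, and −0.19 and 0.31. Members hold more reads than most promoters, and the part of read number in this bunching was not tested. Members on chromosome 11 and on other chromosomes had like medians, −0.22 and −0.22, 0.12 and 0.13, −0.17 and −0.18, and 0.09 and 0.07.

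**Figure D5:**
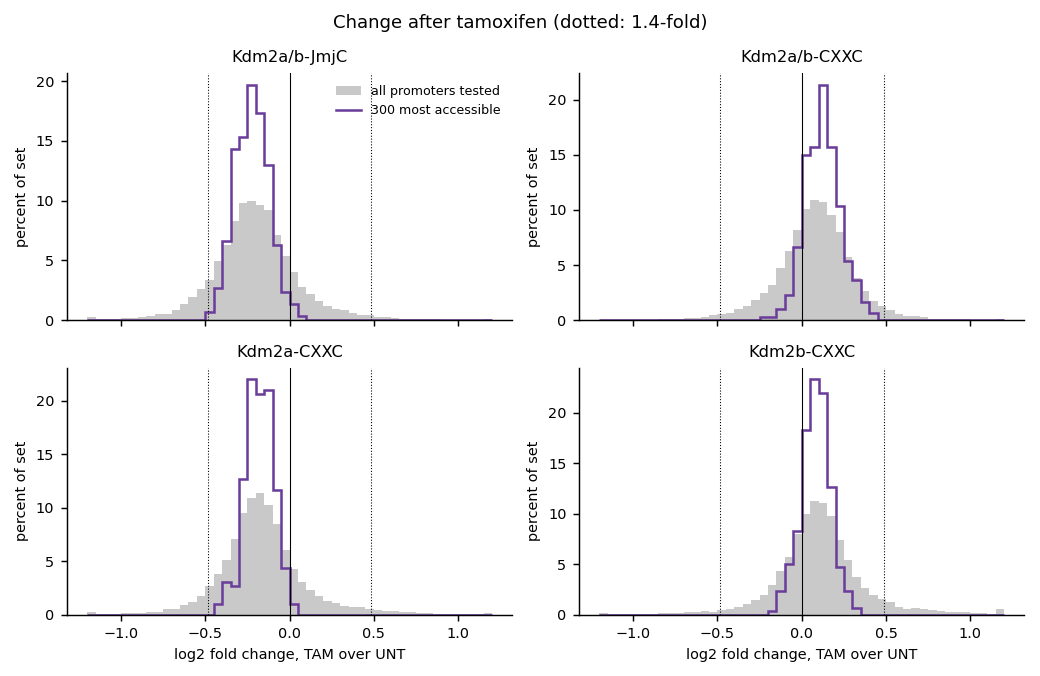
Distribution of log2 fold changes (TAM over UNT) for the 300 members (line) and all promoters tested (grey) in each line, in percent of each set; dotted lines mark 1.4-fold. The members are centred with all promoters, at −0.22 against −0.21 in Kdm2a/b-JmjC cells, and spread less widely.

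To keep the choice of promoters apart from the comparison, the 300 were chosen again for each line from the UNT libraries of the other 3. These held 271, 277, 277 and 288 of the members. Their median log2 fold changes were −0.21, 0.13, −0.18 and 0.08, which lay −0.0047, 0.0419, 0.0003 and −0.0145 from those of all promoters, and limma called none of them in any line.

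The members with the smallest p in each line show the size of the changes. Ap3m2, a subunit of the AP-3 vesicle adaptor at chr8:22805455-22805854, had 427, 472 and 362 calibrated reads in UNT and 343, 310.1 and 249.7 in TAM libraries of Kdm2a/b-JmjC cells. The groups did not overlap, and the log2 fold change of −0.49 (SE 0.11) had an adjusted p of 0.0298 (limma) and was just under 1.4-fold. NM_172505 had 1025, 1016 and 1096 in UNT and 894, 765 and 873 in TAM libraries, again without overlap, with a log2 fold change of −0.31 (SE 0.07) and an adjusted p of 0.0481. Both values include the shift of −0.21 that the median of all promoters showed in this line. Leaving out single libraries moved the number of members called in this line: 10 without TAM replicate 1, 3 without UNT replicate 3, 1 without TAM replicate 2 and 0 without any of the other 3. Over all promoters the first 3 of these fits called 607, 59 and 12, against 13 with all libraries. Without TAM replicate 3, UNT replicate 1 or UNT replicate 2 the calls over all promoters were 3, 0 and 0. The members' calls thus rose with those of all promoters.

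In Kdm2a/b-CXXC cells Smpd3, a neutral sphingomyelinase at chr8:106337789-106338188, had 176, 192, 232 and 218 calibrated reads in UNT and 364, 267, 264 and 219 in TAM libraries. Zbtb5, a BTB zinc finger protein, had 187, 255, 275 and 263 in UNT and 445, 303, 312 and 254 in TAM libraries. For both, TAM replicate 1 was the highest and the groups overlapped. The log2 fold changes were 0.43 (SE 0.17) and 0.41 (SE 0.17), with an adjusted p of 0.996 for Smpd3 by limma. The median of all members was 0.01 without TAM replicate 1 and 0.22 without TAM replicate 4, against 0.12 with all.

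In Kdm2a-CXXC cells 4930583K01Rik, a noncoding transcript on chromosome 7, had 465, 499 and 572 calibrated reads in UNT and 359, 368 and 412 in TAM libraries. Mgme1, a nuclease that maintains mitochondrial DNA, had 422, 424 and 477 in UNT and 262, 374 and 353 in TAM libraries. Neither promoter's groups overlapped, and the log2 fold changes of −0.43 (SE 0.16) and −0.43 (SE 0.17) had an adjusted p of 0.581 by limma. In 53 members of this line, and in 134 in Kdm2a/b-JmjC cells, all TAM values lay below the UNT values. In the other lines there were 0. The share over all promoters was not counted, and the median of all promoters was itself −0.18 in this line. Nothing is therefore read from these counts. The median of all members was −0.28 without TAM replicate 3, −0.08 without TAM replicate 1 and −0.11 without UNT replicate 3. By the median member replicate 3 was the highest library of both groups and replicate 1 the lowest, so leaving either out of a single group unbalances them.

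In Kdm2b-CXXC cells Ccng1 had 489, 284 and 336 calibrated reads in UNT and 558, 374 and 430.2 in TAM libraries, and Cdk5rap3 598, 362 and 409 and 836, 480.1 and 421. The groups overlapped for both, and replicate 1 was the highest in either treatment. The log2 fold changes of 0.31 (SE 0.37) and 0.31 (SE 0.36) were smaller than their SEs, and the adjusted p was 1 for Ccng1 by limma. The sign of the members' median changed with some single libraries left out: it was −0.13 without TAM replicate 1 and −0.09 without UNT replicate 2, against 0.08 with all. It was 0.21 without TAM replicate 2, 0.18 without TAM replicate 3, 0.29 without UNT replicate 1 and 0.04 without UNT replicate 3. By the median member replicate 1 was the highest library of both groups, so leaving it out of a single group unbalances them. These values therefore follow the level of the library left out as well as the change.

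Part of the spread between replicates was common to the members of a library. The median SD of a member's log2 calibrated reads over UNT libraries was 0.113, 0.124, 0.140 and 0.404, and 0.106, 0.109, 0.0859 and 0.0921 once each library was centred on its own members' median. Over TAM libraries it was 0.130, 0.289, 0.203 and 0.382, and 0.104, 0.107, 0.0897 and 0.0903 after centring. Counting error at the median depth is 0.0773 on this scale if reads are independent. Centring lowered the SD most in Kdm2b-CXXC cells, and more in TAM than in UNT libraries of Kdm2a/b-CXXC cells. In Kdm2b-CXXC cells the median member had 513, 297 and 363 calibrated reads in UNT and 547, 341 and 358 in TAM libraries, replicate 1 being the highest of both.

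Members mostly kept their place with respect to other promoters after tamoxifen. They took 5.31 to 5.51%, 5.12 to 5.34%, 5.93 to 6.11% and 5.21 to 5.37% of a library's promoter reads, and the UNT and TAM libraries overlapped in every line. By another measure Kdm2a/b-CXXC cells differed. There the members' median log2 value lay 1.96 to 2.02 above the autosomal median in UNT and 2.04 to 2.09 above it in TAM libraries, without overlap. In the other lines these ranges overlapped, and the difference was not tested. Of the members 135 were in the highest 300 of all 4 lines after tamoxifen, and 110 of these also in the UNT libraries of all 4. Ranking all autosomal promoters by the TAM libraries in the same way returned 266 of the 300. The worst ranks after tamoxifen were 1122 in Kdm2a/b-JmjC (Cep68, a centrosomal protein, 449 in UNT), 1574 in Kdm2a/b-CXXC (2810408I11Rik, noncoding, 483 in UNT), 1083 in Kdm2a-CXXC (Mapt, the microtubule protein tau, 550 in UNT) and 1440 in Kdm2b-CXXC (Bora, 599 in UNT).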

How the data were processed

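Calibrated ATAC-seq libraries (26) of 4 conditional mESC lines were analysed; 26 input genomic DNA libraries were not analysed here. The deposited signal values were made by the authors, who aligned reads to mm10 and dm6 with Bowtie 2, removed duplicates with SAMtools, counted reads in 400-base intervals around RefSeq start sites and divided them by DESeq2 size factors from Drosophila reads corrected by input. Deposited columns of the authors' own comparisons (means, fold changes, p-values) were not used. All values were whole reads divided by a size factor (tolerance 0.05 reads).

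Promoters were ranked as stated in the results. limma 3.58.1 (trend) was run per line on log2(calibrated reads + 1) over all promoters that passed edgeR's filterByExpr, with treatment as the only factor. Tests were two-sided with Benjamini-Hochberg adjustment. A call required an adjusted p under 0.05 and over 1.4-fold. edgeR 4.0.16 (quasi-likelihood) and DESeq2 1.42.0 on the recovered reads were alternatives. Fits were tested on simulated data. Sequences and annotation were GRCm38.p6 (RefSeq), the build of the files. The members and lists were chosen with earlier results of these data known. Named members were the 20 best ranked, the 2 with the smallest p per line, the 3 best ranked of each gene list, the 5 with the widest spread of ranks, those at the border and the 3 with the worst rank after tamoxifen per line. Chromosome-centred ranking and the chromosome 14 bounds were added after seeing the data. Depth is given in the results, and intervals and counting errors cover counting error only.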

Additional observations from a re-analysis of the deposited data

Results flagged for a closer look

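Dixon's test was run on 156 groups of 4 libraries, all in the Kdm2a/b-CXXC line, and 6 exceeded its 95% critical value; chance flags about 1 in 20 groups. The ratio of the gap to the range was 0.860 for Zfp574 in UNT libraries (205, 299, 286 and 290.4 calibrated reads) and 0.876 for Klf5 in UNT libraries (179.8, 215, 211 and 213), the first replicate being low in both. It was 0.830 for Pwwp2a in TAM libraries (366, 308, 312 and 300.9) and 0.841 for Ddx5 in TAM libraries (306, 259, 266 and 258), the first replicate being high in both, and 0.847 for Ccdc115 in TAM libraries (251, 239, 243 and 174), the fourth being low. For the shift of chromosome 14's CpG-rich promoters in TAM libraries it was 0.890, replicate 3 being at −0.0068 and the others between −0.0517 and −0.0467 on the log2 scale.

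The members' share of promoter reads in each TAM library was set against the mean of the line's UNT libraries and moved by −0.0353, 0.109, 0.0229 and −0.0476 percentage points on average in the 4 lines in the order of the report. The move in Kdm2a/b-JmjC differed from that in Kdm2a/b-CXXC cells by −0.145, and that in Kdm2a/b-CXXC from that in Kdm2b-CXXC cells by 0.157 percentage points; the samples of the lines compared moved in opposite directions and the difference was not tested.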

How the results depend on the processing

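The number of members past both thresholds was 0 in the 3 CXXC lines under every alternative tried (scaling, filter, pseudocount, edgeR, DESeq2, leaving out each library). In Kdm2a/b-JmjC cells it was 1 with a pseudocount of 0.5 and 0 to 10 when 1 library was left out, fewer samples being then in the fit. Over all promoters 14 were called with that pseudocount and 0 to 607 with 1 library left out. With TMM scaling the number of members was 0. Named members' values stayed within 1 SD of the replicates in 3751 of 3944 recomputations, and the other 193 came from another scaling. The share of CpG-rich members was 87.7% with a stricter definition, and that of divergent pairs was 19.0% among the 100 best ranked; the cause was not tested. Ranks and changes near the border are limited by the counting error, about 5.36% at the median depth if reads are independent.

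Over promoters, the deviations of libraries with the same replicate number were little correlated (−0.009 to 0.0725 over the 4 lines), and every sample correlated best with its own number only in Kdm2a/b-JmjC cells (3 of 3). The fits of the results did not pair samples by number. This measure cannot settle that choice, because it does not register a shift of a whole library. In level the median member ran in the same order of replicate numbers in UNT (404, 426 and 478 calibrated reads) and TAM (341, 386 and 441) libraries of Kdm2a-CXXC cells, and replicate 1 was the highest in both groups of Kdm2b-CXXC cells. With a replicate block, the members called remained 0 in each line. At an unadjusted p under 0.05 (limma) there were 138, 6, 155 and 23 members in the 4 lines in the order of the report, against 144, 8, 15 and 0 without the block. All promoters were not counted at that threshold with the block, so these counts have no share of all promoters beside them. Past both thresholds, over all promoters, 62, 0, 188 and 5 were called, against 13, 0, 0 and 0.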
